A study of Mus musculus with 6 samples.

Results

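Carboxylesterase gene expression was compared between tumors of the duodenum and of the cecum in mice. The genes are those whose symbol begins with Ces and a digit. A probe set, the group of probes that measures a transcript on the array, was counted when the platform annotation gave it exactly 1 such gene. The array held 11 of these probe sets for 9 genes, out of 12393 genes named in the same way. Ces1d had 3 probe sets, and Ces1c, Ces1e, Ces1f, Ces1g, Ces2a, Ces2e, Ces2g and Ces4a had 1 each. A further probe set carried both Ces3a and Ces3b and was left out. RefSeq lists 20 carboxylesterase genes in the mouse, 1 of them a pseudogene, so fewer than all are described.

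Each of 6 mice gave 1 tumor, 3 from the duodenum and 3 from the cecum, and each tumor's RNA was hybridised to its own Affymetrix array. All 6 mice were Rb1 deficient and carried Apc1638N, an Apc allele that predisposes to intestinal tumors. The way Rb1 was removed is not given in the sources used here, nor is age, sex or strain background. The duodenal group could include tumor tissue from the pylorus, and neither normal tissue nor Rb1-intact tumors were analysed here. The values are MAS5 intensities on a linear scale, with array medians of 164.6 to 181.8. With 3 arrays a site, their number limits the precision.

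Carboxylesterases are serine hydrolases that mostly reside in the lumen of the endoplasmic reticulum, where they split esters, thioesters and amides. The Ces1 family is best known from liver, where Ces1d and its relatives release fatty acids from stored triacylglycerol. The Ces2 family is prominent in the intestinal mucosa, where its members hydrolyse acylglycerols and activate ester prodrugs on first pass. Mouse carboxylesterase genes lie in tandem arrays on chromosome 8, which arose by repeated duplication.

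The clearest pattern lay within the Ces2 array, where Ces2e was higher and Ces2g lower in cecal tumors. In the RefSeq gene order the genes are separated only by Ces2f, and Ces2a lies at the array's outer end. Sequence before these 3 genes is printed here because neighboring copies differed in opposite directions. It is taken from RefSeq, build GRCm38.p6, and runs from 5′ to 3′ along each gene. The 250 bases before the listed transcript start were searched. For Ces2g the last 122 of them lie within the bounds RefSeq gives the gene, so that only the first 128 are printed. Capitals mark the letters CAAAGT or their reverse complement ACTTTG, the core of the binding site of the intestinal and hepatic factor HNF4.
Ces2a, chr8:104733753-104734002, plus strand: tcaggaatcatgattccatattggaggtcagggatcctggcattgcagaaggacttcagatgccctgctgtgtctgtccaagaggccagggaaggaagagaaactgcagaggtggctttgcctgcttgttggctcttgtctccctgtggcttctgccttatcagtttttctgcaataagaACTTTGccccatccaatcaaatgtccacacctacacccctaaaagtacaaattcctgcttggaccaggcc
Ces2e, chr8:104926010-104926259, plus strand: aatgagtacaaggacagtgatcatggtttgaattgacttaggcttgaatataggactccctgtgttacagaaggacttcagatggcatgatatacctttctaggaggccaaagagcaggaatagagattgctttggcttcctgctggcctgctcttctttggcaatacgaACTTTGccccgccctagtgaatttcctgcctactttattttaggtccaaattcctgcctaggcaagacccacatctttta
Ces2g, chr8:104961468-104961595, plus strand: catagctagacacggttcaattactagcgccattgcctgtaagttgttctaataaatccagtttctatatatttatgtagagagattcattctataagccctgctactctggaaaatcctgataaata

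The 30 bases around the core were as follows, with the core in capitals, and those of Ces2g lie partly within the gene's bounds.
Ces2a, chr8:104733921-104733950, plus strand: tctgcaataagaACTTTGccccatccaatc
Ces2e, chr8:104926168-104926197, plus strand: ttggcaatacgaACTTTGccccgccctagt
Ces2g, chr8:104961589-104961618, plus strand: ataaatacagcgACTTTGccctgcctccag

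Each of the 3 stretches of 250 bases held this core once, at 70 bases before the start in Ces2a, 80 in Ces2e and 117 in Ces2g, always as ACTTTG. It occurs on either strand in 12.6% of 32851 RefSeq promoter stretches of the same length. The match was thus shared by the gene that was higher and the gene that was lower in cecal tumors. The letters CATAAA, a core of CDX sites, were found in Ces2g at 179 bases before the start (on the minus strand) and not in Ces2a or Ces2e, against 10.8% of all stretches. A GATA site core, AGATAA, was found in Ces2g and not in the other 2, at 38 bases before the start, against 9.99% of all stretches. Both were searched on both strands, and neither overlaps the capitals. In Ces2g the HNF4 and GATA matches lie within the gene's bounds and the CDX match lies before them. A match describes letters in this window and shows no binding.

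In global alignments the Ces2a and Ces2e stretches were 57.3% identical, Ces2e and Ces2g 55.7%, and Ces2a and Ces2g 54.7%. The longest run shared exactly by Ces2a and Ces2e was cagaaggacttcagatg, 17 bases long, beginning 205 bases before the start of Ces2a and 183 before that of Ces2e. Ces2e and Ces2g shared at most caaattcctgcct, 13 bases long, beginning 34 and 24 bases before their starts. In Ces2g this run lies within the gene's bounds. The 3 pairs thus had similar identities. Other pairs of carboxylesterase promoters ran from 46.5% (Ces1e and Ces4a) to 56.6% (Ces1c and Ces1g). Promoters of Ces1c, Ces1e, Ces1g and Ces4a were matched too and held no CAAAGT. Ces1g, which was higher in cecal tumors, held both the CDX core, at 208 bases before the start, and the GATA core, at 194. Both were also found in Ces1e, and the CDX core in Ces1c, but these genes were too dim to be tested between the sites. Whether either match bears on the differences was not tested. Ces1d and Ces1f were not matched.

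Ces2e, a Ces2 enzyme of the intestinal mucosa, had intensities of 407.1, 137.8 and 335.7 in duodenal tumors 1, 2 and 3 and of 2474.5, 1995.2 and 1007 in cecal tumors 1, 2 and 3. Every cecal tumor was above every duodenal tumor, and the lowest cecal value was 2.47 times the highest duodenal one. Duodenal tumor 2 and cecal tumor 3 were the lowest of their sites. The means were 293.5 ± 139.5 (SD, n = 3) and 1826 ± 748 (n = 3), a log2 fold of 2.60 ± 0.43 (SE) for cecal over duodenal tumors (limma adjusted p = 0.00832).

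Ces2g, the copy beyond Ces2f, had 1714.9, 1146 and 2076.3 in the duodenal tumors against 158.4, 320 and 154.7 in the cecal ones. The order of the sites was the reverse of that for Ces2e, again with no overlap, and the lowest duodenal value was 3.58 times the highest cecal one. The means were 1646 ± 469 and 211 ± 94.4 (SD, n = 3 each). The log2 fold was -2.91 ± 0.31 (SE; limma adjusted p = 0.00108), the largest in size among the 7 carboxylesterase probe sets tested. All 6 arrays were above their 40th percentile of intensity (92.4 to 100.6) for Ces2e and for Ces2g. The calls of both genes held under all 15 alternative settings run, which include leaving out each tumor, with log2 folds of 2.16 to 2.98 for Ces2e and -3.23 to -2.65 for Ces2g.

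Ces2a, at the head of the array, had 446, 331.6 and 427.9 in the duodenal tumors against 1398.2, 1943.7 and 502 in the cecal ones. The groups did not overlap, but cecal tumor 3 lay only 1.13 times above the highest duodenal tumor. The log2 fold of 1.44 ± 0.43 (SE) did not pass (limma adjusted p = 0.0776). Without cecal tumor 3 it was 2.01 (adjusted p = 0.00212), with array weights 1.62 (adjusted p = 0.0348), and over all alternatives the adjusted p ran from 0.00212 to 0.234. Ces4a, from the far end of the same array, had 69.4, 76 and 50.8 in the duodenal tumors against 51.3, 73 and 72.1 in the cecal ones. Its values were below the 40th percentile on all arrays, so Ces4a was not tested.

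**Figure D1:**
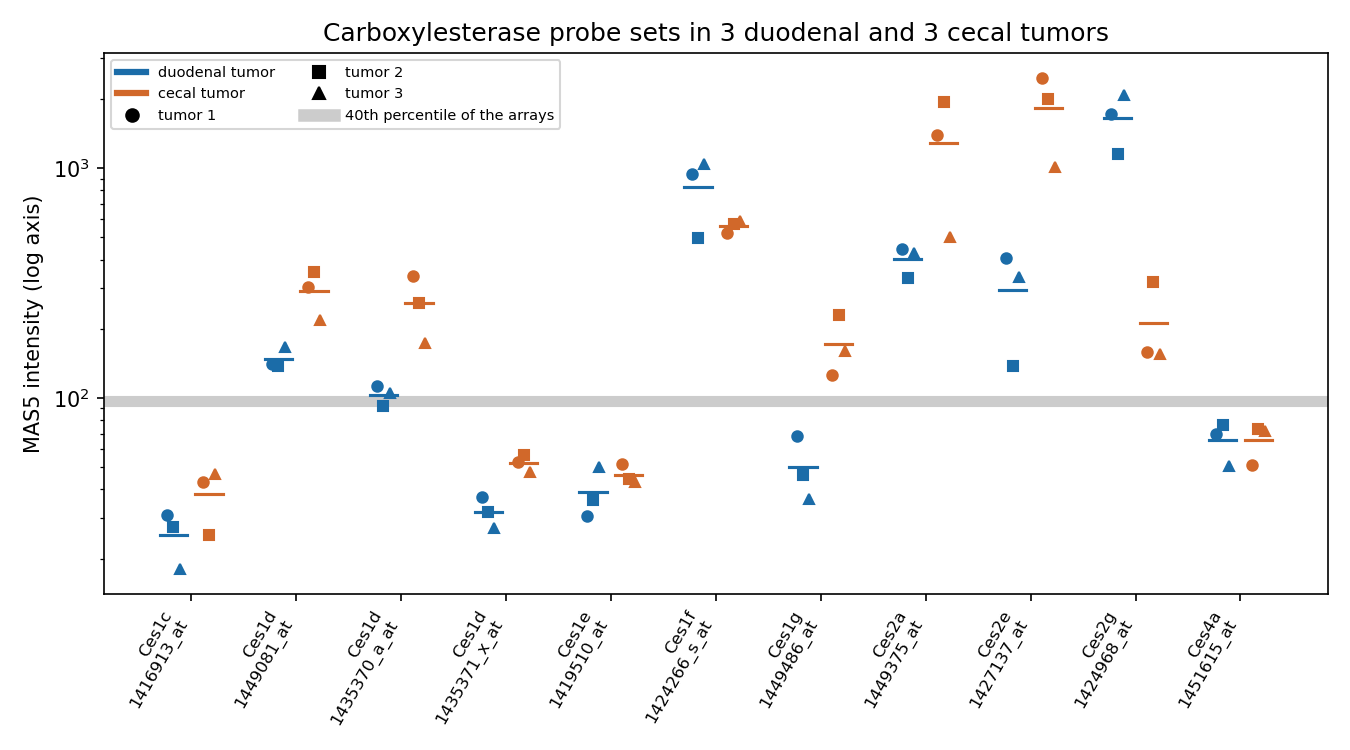
MAS5 intensity (vertical, log axis) of the 11 carboxylesterase probe sets (horizontal) in duodenal (blue) and cecal (orange) tumors. Each symbol is 1 tumor, horizontal lines are means of 3, and the grey band spans the arrays' 40th percentiles (92.4 to 100.6). Ces2g is the one probe set with every duodenal tumor above every cecal tumor.

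In the Ces1 array, Ces1d and Ces1g were higher in cecal tumors by smaller amounts. Ces1d, a triacylglycerol hydrolase that mobilises stored lipid for lipoprotein assembly in liver, had 140.6, 138.3 and 166.2 in the duodenal tumors against 303.6, 353.4 and 219 in the cecal ones by its brightest probe set. The cecal tumors were all higher, with cecal tumor 3 the nearest to the duodenal values. The means were 148.4 ± 15.5 and 292 ± 67.9 (SD, n = 3 each), and the log2 fold was 0.89 ± 0.20 (SE; limma adjusted p = 0.0284).

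The second Ces1d probe set, of the a_at class for transcripts of 1 gene, gave 112.4, 92.1 and 104.7 in the duodenal tumors against 340.2, 258.8 and 174.2 in the cecal ones. It had the direction of the first and no overlap either, with a log2 fold of 1.16 ± 0.24 (SE; limma adjusted p = 0.0206). The third, of the x_at class with probes similar to other transcripts, was too dim to be tested, at 27.1 to 36.9 in duodenal and 47.8 to 56.5 in cecal tumors. The Ces1d calls were marginal: that of the brightest probe set was lost without any single tumor but cecal tumor 3 (adjusted p = 0.0514 to 0.11) and with dim probe sets left in (0.0514). That of the second was lost without cecal tumor 1 (adjusted p = 0.0663), cecal tumor 2 (0.0802), duodenal tumor 2 (0.0524) or duodenal tumor 3 (0.0575).

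Ces1g, a hydrolase studied for its part in hepatic and intestinal lipid secretion, had 68.3, 46.1 and 36.2 in the duodenal tumors against 126.1, 228.8 and 159.9 in the cecal ones. All duodenal values were below the 40th percentile and all cecal values above it. The cecal level of Ces1g was thus higher by at least 1.66-fold, set against the percentile level in duodenal tumors (limma adjusted p = 0.0129). It entered the test only through its cecal values, so that its direction largely follows from the filter. Without cecal tumor 2 the adjusted p was 0.0536.

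Ces1f, a triacylglycerol hydrolase closely related to Ces1d, did not pass. It had 937.9, 497.5 and 1043.6 in the duodenal tumors against 523.9, 573.2 and 588.1 in the cecal ones. The duodenal tumors spread widely and overlapped the cecal ones through tumor 2, while the cecal tumors lay close together. The log2 fold was -0.48 ± 0.26 (SE; limma adjusted p = 0.313), or -0.80 without duodenal tumor 2 (adjusted p = 0.0149). Its probe set is of the s_at class, which by Affymetrix naming can detect more than 1 gene of a family, so its signal may include other Ces1 copies. Probe sequences were not used here, and cross-hybridisation to close copies was not tested for any of these probe sets.

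The remaining Ces1 members were dim. Ces1c, the esterase secreted into blood plasma, ranged from 18 to 46.5 over the 6 arrays. Ces1e, known as egasyn, which holds beta-glucuronidase in the endoplasmic reticulum, ranged from 30.6 to 51.5. Both were below the 40th percentile in all 6 tumors and their groups overlapped, so neither was tested. The gene of that glucuronidase, Gusb, was well measured at 1034.8, 1358.4 and 1060.4 in the duodenal tumors against 810.7, 1128.8 and 1536.1 in the cecal ones (log2 fold -0.03 ± 0.23 SE, limma adjusted p = 0.962; named after its values were seen).

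Of the 7 carboxylesterase probe sets tested, 5 passed, 4 higher and 1 lower in cecal tumors. They stood for 4 of 6 genes, with Ces1d, Ces1g and Ces2e higher and Ces2g lower. Ces1g is counted here although it entered the test only through its cecal values. The members were chosen with earlier results of these data known, so their counts and medians are descriptive only. Among all 13866 tested probe sets 9.3% passed, 5.24% higher and 4.07% lower, and among 8129 tested genes 10.4% passed. In 6 of the 7 probe sets the sites had no overlap, as in 29.5% of all tested. The median log2 fold of the 7 was 1.16, against -0.04 over all tested, and their median size was 1.44 against 0.20. The other 4 probe sets did not reach the intensity filter, and the 7 are not all members. The count fell to 3 without cecal tumor 1 or without duodenal tumor 3 and to 2 without cecal tumor 2. All 5 calls held with replicate numbers as a block.

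**Figure D2:**
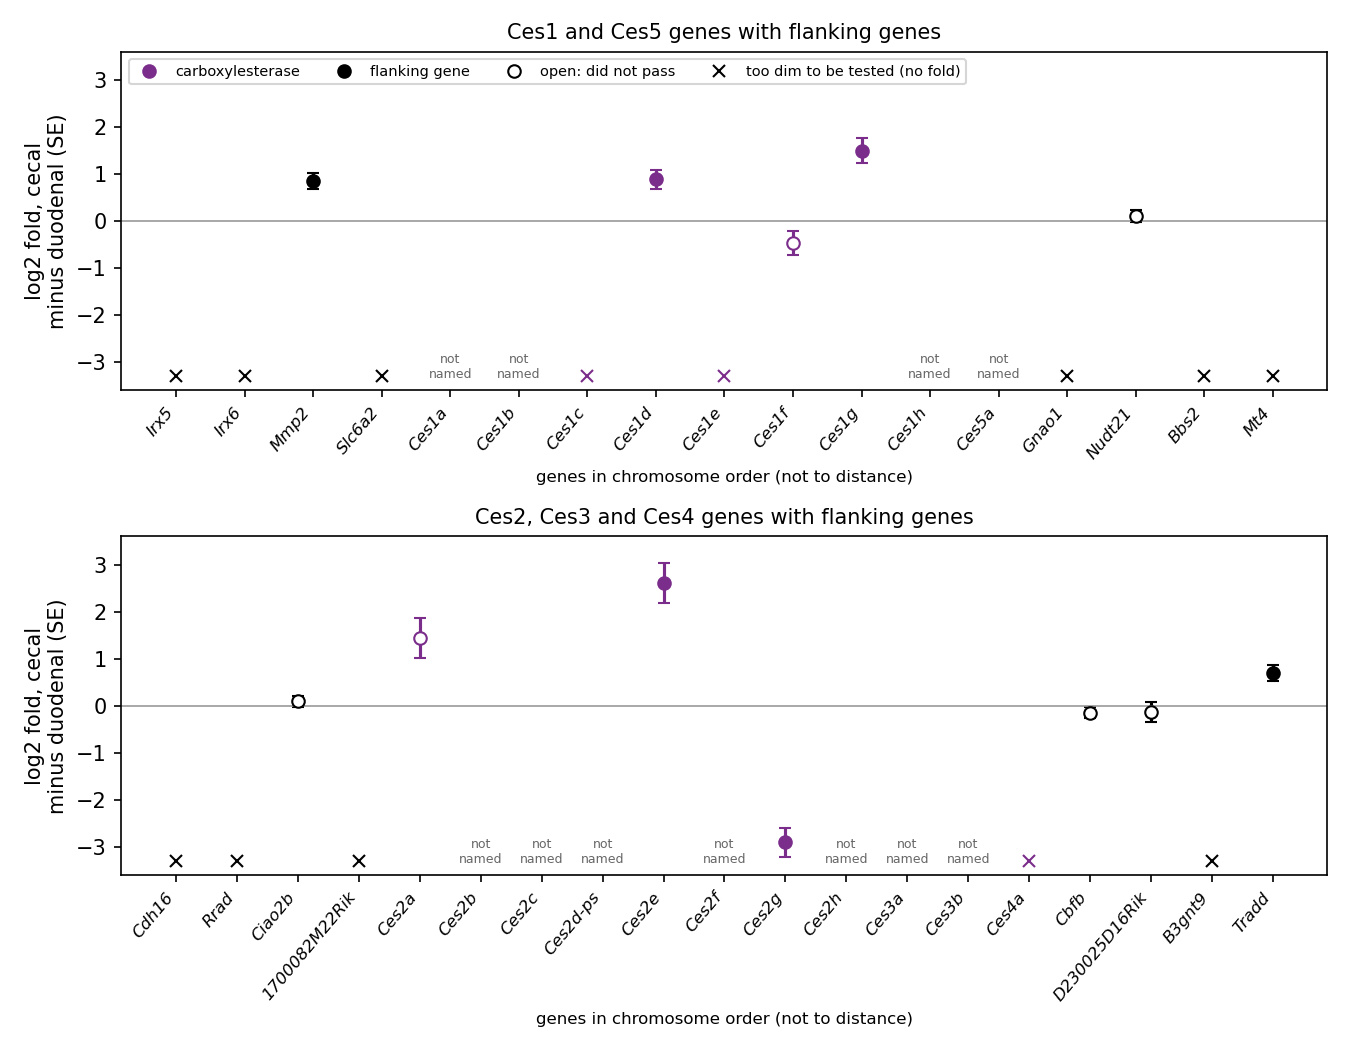
Log2 fold, cecal minus duodenal tumors (vertical, bars are the limma standard error), of carboxylesterase genes (purple) and the nearest 4 genes on the array to each side (black), in chromosome order and not to distance. Filled points passed and open points did not, crosses were too dim to be tested, and genes without a probe set of their own are marked as not named. Ces2e at 2.60 and Ces2g at -2.91 lie on opposite sides of 0, while the tested flanking genes lie between -0.15 and 0.84.

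Genes next to the arrays were read beside the family. Of the nearest 4 measured genes on each side of the Ces2 to Ces4 array, 4 of 8 were bright enough to be tested and 1 passed, Tradd, an adaptor of the TNF receptor, with a log2 fold of 0.70 ± 0.17 (SE; limma adjusted p = 0.0379). The other 3 were Ciao2b at 0.09, Cbfb at -0.15 and D230025D16Rik at -0.14. Around the Ces1 array, 2 of 8 were tested and 1 passed, the matrix metalloproteinase gene Mmp2, with a log2 fold of 0.84 ± 0.17 (limma adjusted p = 0.0201). Among all tested genes 10.4% passed, and these genes are too few to set beside that share.

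The tumors within a site also differed from each other across the family. Duodenal tumor 2 was the lowest of its site in 6 of the 7 tested carboxylesterase probe sets, and in 34.7% of all tested probe sets. Cecal tumor 3 was the lowest of its site in 5 of the 7, and in 32.9% of all tested. Fabp2, the intestinal fatty acid binding protein, had 1647, 666.2 and 1671.8 in the duodenal tumors against 6377.7, 5765.8 and 1804.5 in the cecal ones, the same 2 tumors being lowest. Its log2 fold of 1.71 ± 0.52 (SE) did not pass (limma adjusted p = 0.0811). Not all markers of small intestinal enterocytes had this order. Slc5a1 had 548.6, 524.4 and 393 in the duodenal tumors against 709.6, 833.6 and 930.7 in the cecal ones (limma adjusted p = 0.0322). Duodenal tumor 3 was thus its lowest and cecal tumor 3 its highest. Of the cecal tumors, tumor 1 was the lowest for Anpep (33.6) and tumor 2 for Mttp (35.4).

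For each carboxylesterase gene that passed, the 3 genes most like it were found by the root mean square difference of log2(intensity + 16) values over the 6 arrays, each centred on its own mean. For Ces2e they were Pdzd3, a scaffold protein of the apical membrane (difference 0.27), the efflux pump Abcg2 (0.30) and Nr1h4, the bile acid receptor FXR (0.32), against a median of 1.47 over 8123 genes. Pdzd3 was below the 40th percentile in all duodenal tumors, so that its difference and rank rest in part on dim values. Abcg2 had 216, 133.2 and 160.4 in the duodenal tumors against 1762.4, 1281.4 and 700.7 in the cecal ones. As with Ces2e, duodenal tumor 2 and cecal tumor 3 were the lowest of their sites.

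For Ces2g the most alike were Ripply3 (difference 0.20), a transcriptional repressor, the kinase Stk26 (0.26) and Dmkn (0.28), against a median of 1.497. Stk26 and Dmkn were below the 40th percentile in all cecal tumors, and Ripply3 in cecal tumors 1 and 3. Their differences and ranks thus rest in part on dim values. Ripply3 had 744.5, 560.9 and 967.4 in the duodenal tumors against 90.2, 149.8 and 93.6 in the cecal ones, so that cecal tumor 2 was the highest of its site for this gene and for Ces2g. For Ces1g, itself below the 40th percentile in all duodenal tumors, they were Plcl2 (0.16), Gucy2c (0.20), the receptor of guanylin, and Mdm2 (0.22), against a median of 0.85. For Ces1d they were Gtpbp2 (0.04), the growth factor Fgf7 (0.06) and Asap1 (0.08), against a median of 0.55. The 6 arrays form 2 groups, so genes that share a difference between the sites score as alike on that ground alone.

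**Figure D3:**
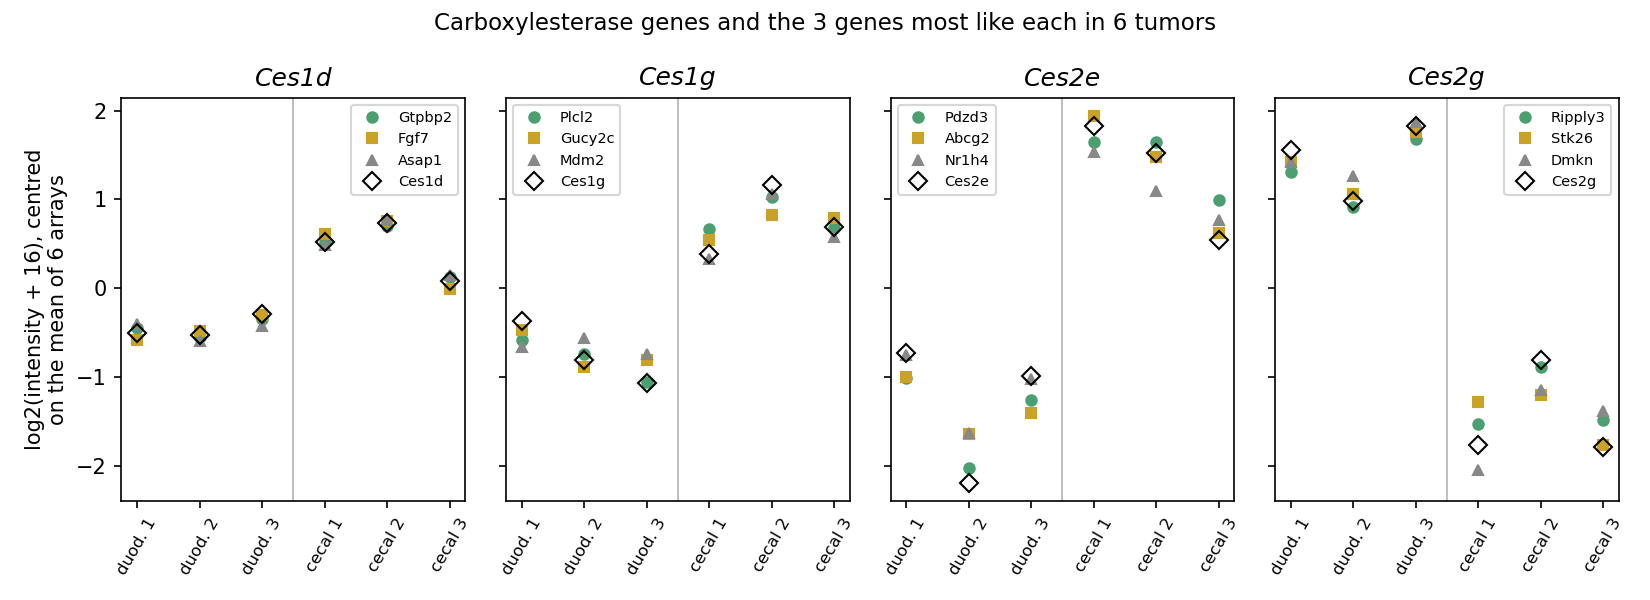
Log2(intensity + 16), centred on each gene's mean over 6 arrays (vertical), in 3 duodenal and 3 cecal tumors (horizontal) for the 4 carboxylesterase genes that passed (open diamonds) and the 3 genes most like each. The Ces2e panel shows duodenal tumor 2 and cecal tumor 3 lowest within their sites for Ces2e, Abcg2 and Nr1h4.

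Of 17 tested genes of other ester hydrolases and lipases 2 passed in limma, a share near the 10.4% of all tested genes, and the median log2 fold was 0.10. With the replicate number as a block 1 more passed, with the lower level in cecal tumors. The lipase gene Daglb, which acts on diacylglycerol, had a cecal level higher by at least 3.03-fold (limma adjusted p = 0.00173), and the endothelial lipase gene Lipg at least 1.86-fold higher (0.00197). Both were below the 40th percentile in all duodenal tumors and entered the test only through the cecal ones, so that their direction largely follows from the filter. Aadac, a microsomal deacetylase that shares substrates with carboxylesterases, had 495.9, 479.1 and 431.4 in the duodenal tumors against 148.1, 355.7 and 59.7 in the cecal ones. Its groups did not overlap, but its log2 fold of -1.54 ± 0.48 (SE) did not pass (limma adjusted p = 0.0914). The paraoxonase Pon3 had a log2 fold of 0.44 (adjusted p = 0.0648).

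Of 14 tested genes of acylglycerol synthesis and lipid packaging, 2 were higher and 3 lower in cecal tumors, against 10.4% of all tested genes that passed in either direction, with a median log2 fold of 0.02. With the replicate number as a block 3 were higher and 4 lower. Mogat1, which makes diacylglycerol from monoacylglycerol, had 574.8, 195 and 389.7 in the duodenal tumors against 29.2, 29.3 and 11 in the cecal ones. Its duodenal level was thus higher by at least 3.66-fold, set against the percentile level in cecal tumors (limma adjusted p = 0.0018). Dgat2, which completes triacylglycerol, had 1518, 1336.8 and 1548.6 in the duodenal tumors against 2662.8, 3390 and 2242.7 in the cecal ones (adjusted p = 0.0128). Fabp1 and Mttp were the other 2 lower genes. All 3 were below the 40th percentile in every cecal tumor, so that their direction largely follows from the filter. Of the duodenal tumors, tumor 2 was the lowest for Fabp1 and Mttp, at 683.8 and 214.3.

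Among transcription factors tied to carboxylesterase genes, 5 of 15 tested were higher and 1 lower in cecal tumors, against 10.4% of all tested genes that passed in either direction, with a median log2 fold of 0.38. The intestinal homeobox factors Cdx1 and Cdx2 were higher, at log2 folds of 1.57 ± 0.23 and 1.63 ± 0.16 (SE; limma adjusted p = 0.00496 and 0.000783). Nr1h4 had 154.6, 76.9 and 125.9 in the duodenal tumors against 819.3, 598.6 and 472.5 in the cecal ones (adjusted p = 0.00192). Gata4, a factor of the proximal intestine, had 523.8, 242.8 and 513.1 in the duodenal tumors against 37.8, 61.7 and 63.7 in the cecal ones, which puts duodenal tumors at least 4.19-fold above (adjusted p = 0.00193). It entered the test only through the duodenal tumors. The remaining 2 that passed, named after their values were seen, were Nr1i2, the xenobiotic receptor PXR, at 0.72 ± 0.17 (adjusted p = 0.0328), and Hnf4a, at 0.50 ± 0.11 (adjusted p = 0.0266). The letters marked above are a core of HNF4 sites, and binding to them was not measured. Hnf4a was well measured in all 6 tumors, between 3203.1 and 5223.3.

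Of 10 genes of the endoplasmic reticulum lumen and its retention receptors, the compartment that holds carboxylesterases, none passed in limma, 0 had an unadjusted p under 0.05, and none passed with the replicate number as a block. Their median log2 fold was -0.09. The 4 with the smallest p were Pdia4 (-0.53), Pdia3 (-0.22), the chaperone Hspa5 (-0.22) and Hsp90b1 (-0.19), with adjusted p of 0.224 to 0.468.

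**Figure D4:**
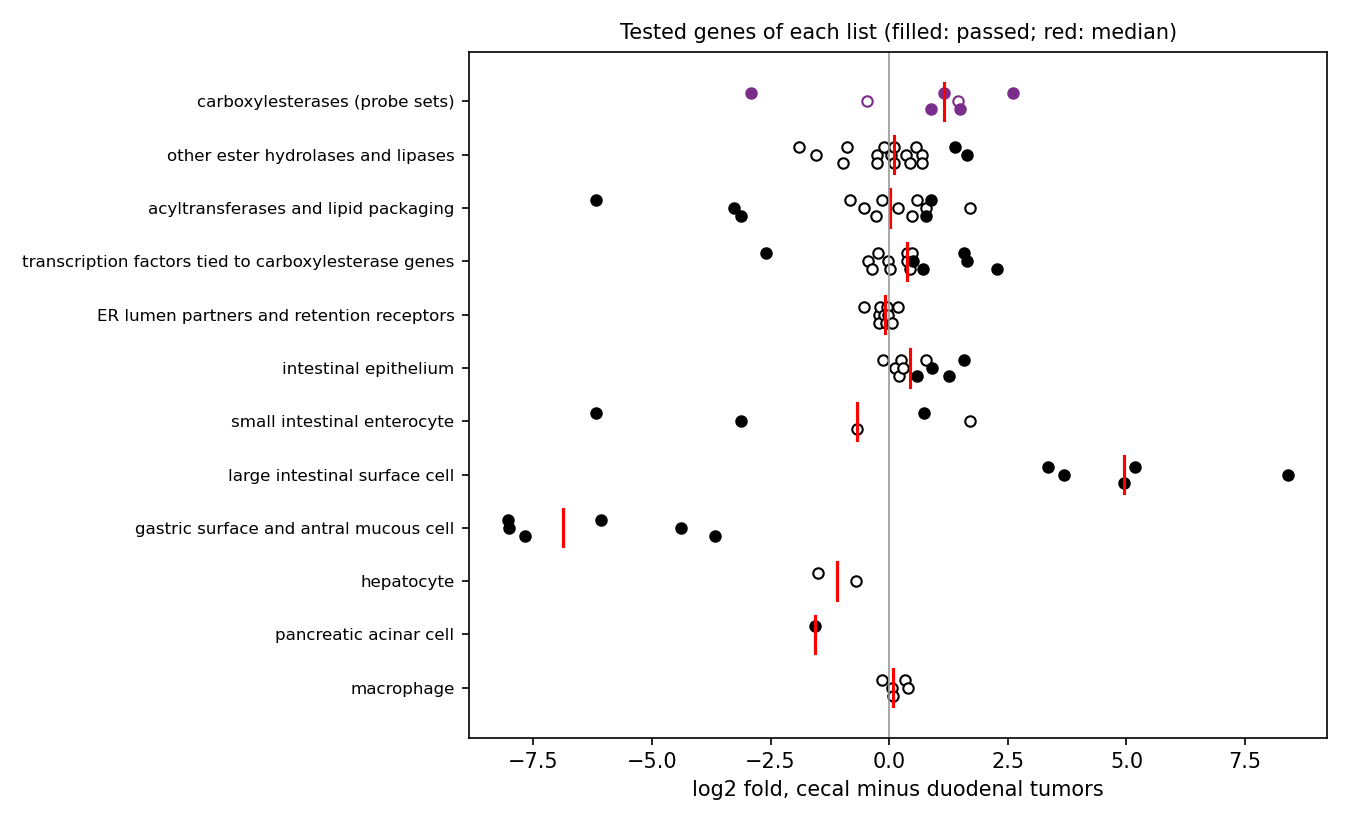
Log2 fold, cecal minus duodenal tumors (horizontal), of the tested carboxylesterase probe sets and of the tested genes of each list (rows). Each point is 1 probe set or 1 gene, filled where it passed, and the red line is the row's median. The carboxylesterases span -2.91 to 2.60, and the endoplasmic reticulum row centres on -0.09.

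Marker genes of several cell types differed between the sites beside these results. In bulk tumors, fewer cells of a type and less RNA per cell cannot be told apart. The counts below stand beside the 10.4% of all tested genes that passed in either direction. Epithelial markers were bright in both groups: 4 of 10 were higher in cecal tumors and none lower. Cdx1 is among them and is also counted with the transcription factors above. Their summed intensity was 61081 to 70916 in duodenal and 79150.5 to 82269 in cecal tumors. Large intestinal surface markers summed to 691.5 to 830.7 in duodenal and 19117 to 26192.5 in cecal tumors, with 5 of 5 tested higher in the latter. Gastric mucous cell markers summed to 56220.5 to 80640.2 and to 1156 to 2012, with 6 of 6 lower in cecal tumors. Small intestinal enterocyte markers summed to 2310 to 9136 and to 2988 to 7237, with 1 of 5 tested higher and 2 lower. Of these markers, Car1, Aqp8 and Cyp2c55 were below the 40th percentile in all duodenal tumors. Gkn1, Gkn2, Tff2 and Muc5ac were below it in all cecal tumors, as were the 2 lower enterocyte markers, Fabp1 and Mttp. The filter fixes the direction of all of these. The part of these cell types in the carboxylesterase differences was not tested.

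Cells of other tissues that are rich in carboxylesterases were looked for as well. The 3 adipocyte markers on the array summed to at most 27.3 in duodenal and 62.9 in cecal tumors, with Adipoq, the defining one, at 2.6 to 15.5. Of 5 hepatocyte markers 2 were tested, of which none passed in limma or with the replicate block and 0 had an unadjusted p under 0.05, and their sum was 1950 to 4222 in duodenal and 1260 to 2480 in cecal tumors. Most of that sum was transthyretin, Ttr, except in duodenal tumor 2, where albumin was the larger part. Ttr was at 1837.8, 1940.8 and 3450.5 in the duodenal tumors against 1181.5, 2179.3 and 1112.6 in the cecal ones (limma adjusted p = 0.227). Of the untested markers, Apoh ranged from 25.1 to 105.2, and Fgb and Ahsg were at or below 16.7 in all 6 tumors. Albumin was at 2168.4 in duodenal tumor 2 and at 45.8 to 210.5 in the other 5, and that tumor had the lowest duodenal value of Ces1d, Ces1f, Ces2a, Ces2e and Ces2g. Ces1g was lowest in duodenal tumor 3, at 36.2, and a link of albumin with these genes was not tested. Of the pancreatic acinar markers, 1 of 1 tested, Cela1, was lower in cecal tumors (limma adjusted p = 0.0102), and Cel and Ctrb1 were at or below 53.8 in all tumors. None of 5 macrophage markers passed in limma, also with the replicate block, and 2 had an unadjusted p under 0.05.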

How the data were processed

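Per the submitters' processing notes, the authors made the deposited linear intensities with MAS5. The version is not given in the sources used here, and neither are detection calls, batches or scan dates. The trimmed mean between the 2nd and 98th percentiles was 499.1 to 499.9. No further scaling was applied. Genes were named through the platform annotation: of 22690 probe sets 20380 named 1 gene, 691 several and 1555 none, and 64 were controls. All 9 carboxylesterase symbols were found in RefSeq, used for gene order and promoters.

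Probe sets above their array's 40th percentile on at least 3 of 6 arrays were tested. Values were log2(intensity + 16), so that folds of dim genes are understated. The sites were compared two-sided by limma 3.58.1 under R 4.3.3 (lmFit, eBayes, trend on intensity), with Benjamini-Hochberg adjustment over all 13866 tested probe sets and a threshold of 0.05. The brightest probe set stands for a gene. Where a probe set was below the percentile on all arrays of a site, the fold is a bound against that level. Promoters (250 bases) were aligned globally with Biopython 1.88 (match 1, mismatch -1, gap -2, extension -0.5). The procedure was tested on simulated data. Figures were drawn with matplotlib 3.10.9.

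Every member is named. Of each pathway list the 4 tested genes with the smallest p are named, and of each marker list up to 3 of the brightest. For each member gene that passed, the 3 genes most like it are named, and the genes next to the arrays by position. Fgb, Ahsg, Aqp8, Tff2, Muc5ac and other names outside these rules were chosen after their values were seen. Members and lists were chosen with earlier results of these data known. Per the labels' protocols each tumor had its own mouse. Replicate numbers recur in both groups, and deviations from the group means had correlations of 0.274, 0.299 and 0.203 for same-numbered tumors and of -0.2 to -0.0261 for others. Deviations cancel out within a group, so positive same-numbered values push the others to negative ones, which add no separate evidence. All 3 same-numbered correlations were over 0.1, but a pairing read from them comes from the data alone. The main fit has no block, and a fit with the block was an alternative. The other alternatives changed the offset, the filter, the scaling, the variance model, the array weights, the probe set choice and the arrays included.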

Additional observations from a re-analysis of the deposited data

How the results depend on the processing

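The carboxylesterase count of 5 of 7 probe sets was 2 of 4 with a 60th percentile filter, under which fewer probe sets were tested, and 2 to 6 when 1 tumor was left out. The pathway lists' count of 13 fell to 7 with that filter, also with fewer tested. The count over all probe sets was 1290, or 1939 with array weights and 658 to 1194 without 1 tumor. The cause of the rise with array weights was not tested. With the replicate number as a block the counts were 1571 over all probe sets, 16 in the pathway lists and 5 among carboxylesterases, and no carboxylesterase call changed. No carboxylesterase fold reversed under any alternative. With the mean of its probe sets in place of the brightest, 4 of 6 genes passed as before. Dim signal limits Ces1c, Ces1e, Ces4a and the duodenal levels of Ces1g and of the second Ces1d probe set.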

Other observations

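Pancreatic-type lipase genes, named after their values were seen, varied widely between single tumors. Pnliprp2, a lipase related to pancreatic lipase, had 634.2, 6145.3 and 582.9 in the duodenal tumors against 86.4, 798.5 and 544.1 in the cecal ones, and Pnliprp1 had 98.8, 2611 and 223.7 and then 81.6, 467.5 and 226.4. Duodenal tumor 2 was the highest of all 6 for both, and it also had the highest albumin intensity. Neither gene passed between the sites (limma adjusted p = 0.309 and 0.68). The lipase cofactor gene Clps did not share this pattern, with 792, 616.8 and 783.5 in the duodenal tumors against 211.8, 359.1 and 630.3 in the cecal ones (adjusted p = 0.124).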
